A study of Oryza sativa with 8 samples.

Results

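The 10 genes described here code for WRKY transcription factors that are known from rice immunity. They were chosen by locus ID, WRKY45, WRKY62, WRKY76, WRKY71, WRKY28, WRKY53, WRKY70, WRKY24, WRKY13 and WRKY42, and all 10 were found among the 36850 rows of the count table. Field-grown rice (Oryza sativa) was sampled at early heading, at 10 in the morning, and RNA of the second leaf from the top was sequenced. The groups, of 4 libraries each, are WT and mEmBP-OE-4, a single rice line with raised expression of the maize bZIP factor mEmBP-1a. The labels name neither the cultivar nor the promoter that drives the transgene, give no treatment or infection for either group, and do not say whether replicates are separate plants, so p-values measure only the spread between these libraries.

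WRKY proteins carry a conserved DNA-binding domain and recognise W-box elements in promoters. In rice, many of them are switched on by pathogens, wounding or defence hormones, and they form cascades in which some activate defence and others hold it back. WRKY45 is a central activator in the salicylic acid branch of rice immunity, and WRKY62 is among the genes it is known to act on. WRKY62, WRKY76, WRKY71 and WRKY28 make up a small subgroup of the family, usually called group IIa. WRKY53, WRKY24 and WRKY70 belong to the subgroup with a pair of WRKY domains.

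Libraries held 35627524 to 50800180 counts. Levels are given as CPM, counts per 1000000 counts on library sizes scaled by TMM, a method that assumes most genes are unchanged between samples. The 6 leaf mesophyll marker loci were all in the top 1% of tested genes and summed to 45123 to 59379 CPM in WT and 54763 to 99466 CPM in mEmBP-OE-4, and 5 of them were called higher. Summed levels of the 3 floral organ loci overlapped, with 2.38 to 3.57 CPM for WT against 1.82 to 3.49 CPM for mEmBP-OE-4. Nearly all of that sum was 1 locus, the only one tested, which was not called. The other floral loci were low, but each was higher in all libraries of the line than in any of WT. Their means were 0.0544 and 0.00634 CPM for WT against 0.260 and 0.208 CPM for the line. Tested without a filter, 2 of the 3 floral organ loci were called higher. The 3 secondary wall loci summed to 0.0423 to 0.127 CPM in WT, where 2 of them were at 0, and to 2.10 to 8.05 CPM in mEmBP-OE-4. That rise was nearly all of 1 locus, the only one tested, at a mean of 5.34 CPM in mEmBP-OE-4. The others were at means of 0.013 and 0.146 CPM there. The part of these shifts in the results below was not tested. In a whole leaf, fewer cells of a type and less RNA per cell cannot be told apart.

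Of the 10 WRKY genes, 9 had enough counts to be tested, 6 fell in mEmBP-OE-4 and none rose. WRKY45, WRKY62 and WRKY76 fell more than 8-fold, WRKY28, WRKY53 and WRKY13 fell by smaller amounts, and WRKY71, WRKY24 and WRKY70 did not pass the test. Among all 20690 tested genes 19.1% were called lower and 20.1% higher, at an adjusted p of 0.05 in the quasi-likelihood test of edgeR, adjusted after Benjamini and Hochberg over all of them; this is the edgeR adjusted p given below. No tested member had a log2 fold change above 0, where 49.9% of all tested genes were below 0. WRKY42, which the low-count filter removed, was at 1.79 when tested without a filter and was not called. DESeq2 and limma-voom also called no member higher. The count needs care, because WRKY62 and WRKY28 passed the low-count filter through their WT libraries alone and so had to be lower in the line. Of the other 7 tested members, 4 fell. A fall by at least 8-fold was called in 1.31% of all tested genes. The libraries of the line were all below those of WT for WRKY45, WRKY62, WRKY76, WRKY28, WRKY53 and WRKY13, as they were for 19.7% of tested genes. For WRKY62 and WRKY28 the way they passed the filter already fixed this order on library totals, so their separation is no added result.

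**Figure D1:**
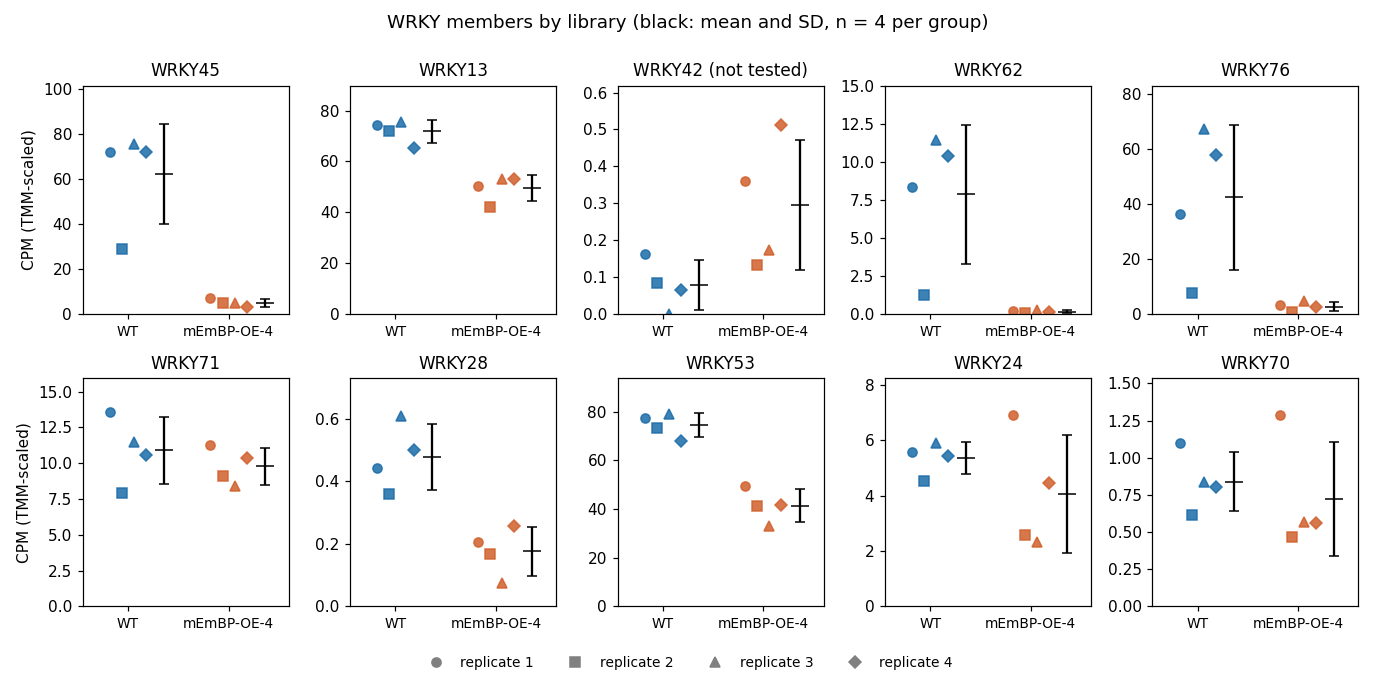
Level of each WRKY gene in each library, in TMM-scaled CPM on linear axes that start at 0 and differ between panels. Points are libraries, with a marker shape for each replicate number, and the black bar is the mean and SD of 4 libraries. WRKY45, WRKY62, WRKY76, WRKY28, WRKY53 and WRKY13 were lower in every mEmBP-OE-4 library than in any WT library, and replicate 2 is the lowest WT library for WRKY45, WRKY62 and WRKY76. WRKY62 and WRKY28 passed the low-count filter through WT alone, which fixed their order on library totals.

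WRKY45 (Os05g0322900, on chromosome 5 by its ID) stands at the head of a reported order of action in blast resistance in which it is followed by WRKY13 and then WRKY42. Its level was 72.1, 29.0, 75.5 and 72.0 CPM in WT replicates 1 to 4 and 7.01, 4.73, 4.94 and 3.05 CPM in mEmBP-OE-4 replicates 1 to 4. WT replicate 2 was well below the other WT libraries but still above all libraries of the line. WRKY45 was thus 12.6-fold lower in the line, a log2 fold change of -3.65 ± 0.35 (SE; edgeR adjusted p = 1.02e-04), and 188 tested genes had a lower log2 fold change. Without WT replicate 2 the log2 fold change was -3.90 ± 0.24 (SE).

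WRKY13 (Os01g0750100, chromosome 1) is known as an activator of salicylic acid responses in resistance to bacterial blight and blast. It was expressed at 74.5, 72.0, 75.6 and 65.4 CPM in the WT libraries and at 50.3, 42.2, 53.0 and 53.3 CPM in those of the line. The groups did not overlap and each was tight, with a coefficient of variation of 6.38% in WT and 10.4% in the line. The fall was small, a log2 fold change of -0.53 ± 0.11 (SE; edgeR adjusted p = 0.00396). It is close in size to the shift of all genes between scalings: with library totals alone, in place of TMM, the median of all tested genes was -0.47 and WRKY13 stood at -0.997 ± 0.16 (SE).

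WRKY42 (Os02g0462800, chromosome 2), known as a repressor of blast resistance, was barely present. Counts were 10, 4, 0 and 3 in WT and 14, 4, 7 and 20 in the line, or 0.0784 ± 0.0675 and 0.295 ± 0.176 CPM (SD, n = 4), and the groups overlapped. It did not pass the filter. Tested without a filter it had a log2 fold change of 1.79 ± 0.75 (SE; edgeR adjusted p = 0.0984). A difference was not detectable at this depth.

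Of the group IIa genes, WRKY62, WRKY76 and WRKY28 fell and WRKY71 did not pass the test. WRKY62 (Os09g0417800) and WRKY76 (Os09g0417600) lie on chromosome 9 by their IDs, and the RefSeq gene table for assembly ASM3414082v1, which is of another build and was used for names and order only, lists no gene between them. WRKY62, known in overexpressing plants to dampen resistance to bacterial blight, held 510, 60, 451 and 480 counts in WT and 7, 2, 10 and 6 counts in the line. That is 8.35, 1.27, 11.4 and 10.4 CPM against 0.180, 0.0666, 0.246 and 0.154 CPM. All libraries of the line were near the floor, so the size of the fall is imprecise. The fitted log2 fold change was -5.54 ± 0.71 (SE), or 46.5-fold with 28.4 to 76.2 at ± 1 SE (edgeR adjusted p = 4.43e-04). In all, 99 tested genes had a lower log2 fold change.

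WRKY76, known as a repressor of defence genes and of phytoalexin synthesis in blast infection, was the most variable of the well-expressed members. WT libraries held 36.6, 7.78, 67.6 and 58.0 CPM, a coefficient of variation of 62.4%, and those of the line 3.22, 0.566, 4.62 and 2.51 CPM, one of 61.8%. The groups did not overlap, although WT replicate 2 came close to the highest library of the line. WRKY76 fell by 3.94 on the log2 scale ± 0.71 (SE), 15.3-fold (edgeR adjusted p = 0.00240). With the replicate number as a block the log2 fold change was -3.93 and its SE was 0.18, since the replicate 2 libraries were the lowest in both groups.

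WRKY71 (Os02g0181300, chromosome 2), which raises resistance to bacterial blight when overexpressed and represses gibberellin responses in aleurone, did not pass the test. Its WT libraries held 13.6, 7.92, 11.5 and 10.6 CPM and those of the line 11.3, 9.10, 8.41 and 10.4 CPM, and the groups overlapped almost entirely. The log2 fold change was -0.16 ± 0.18 (SE; edgeR adjusted p = 0.507). With library totals alone it was -0.63 ± 0.23 (SE) with adjusted p = 0.0425, against the median of -0.47 for all tested genes on that scale.

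WRKY28 (Os06g0649000, chromosome 6), a repressor of basal defence in rice, was low in all libraries. Counts were 27, 17, 24 and 23 in WT and 8, 5, 3 and 10 in the line, with no overlap in CPM (0.359 to 0.609 against 0.0738 to 0.256). It passed the filter through WT alone, which fixed this order on library totals. It fell by 1.42 on the log2 scale ± 0.41 (SE; edgeR adjusted p = 0.0208). Leaving out WT replicate 3, WT replicate 4 or replicate 2 of the line ended the call, at edgeR adjusted p = 0.0634, 0.0546 and 0.0506.

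**Figure D2:**
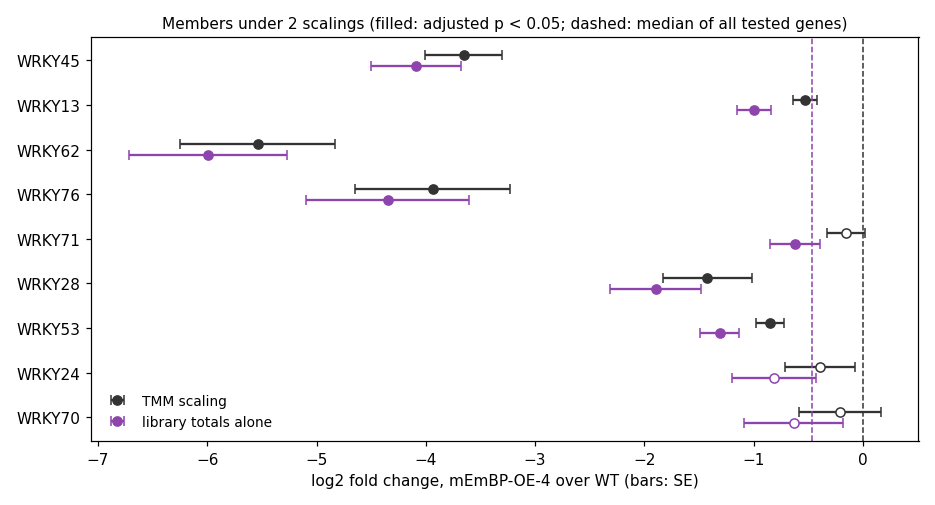
Log2 fold change of the 9 tested WRKY genes, mEmBP-OE-4 over WT, with SE bars, under TMM scaling and with library totals alone. Filled points passed the threshold, and the dashed lines are the median of all tested genes, near 0.00 under TMM and -0.47 with library totals. All 6 genes called under TMM were also called with library totals, which called WRKY71 as well.

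Among the genes with a pair of WRKY domains, WRKY53 fell and its relatives did not pass the test. WRKY53 (Os05g0343400, chromosome 5) is induced by chitin, a fungal wall component, and is known as a positive regulator of blast resistance. Its levels were 77.4, 73.3, 79.1 and 68.1 CPM in WT and 49.4, 41.5, 32.9 and 41.7 CPM in the line. The groups were well apart, and WT varied by a coefficient of variation of 6.56%. WRKY53 fell by 0.85 on the log2 scale ± 0.13 (SE), 1.80-fold (edgeR adjusted p = 0.00103), and by 1.31 with library totals alone.

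WRKY24 (Os01g0826400, chromosome 1), known as a repressor of gibberellin and abscisic acid signalling in aleurone, stood at 5.58, 4.54, 5.91 and 5.45 CPM in WT. In the line it was 6.93, 2.60, 2.31 and 4.46 CPM. Replicate 1 of the line exceeded all WT libraries while its other libraries were below all of them. The log2 fold change was -0.40 ± 0.32 (SE; edgeR adjusted p = 0.356). Without that library it was -0.80 ± 0.25 (SE) with adjusted p = 0.0313.

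WRKY70 (Os05g0474800, chromosome 5), known from the response to chewing insects, in which it favours defence over gibberellin-driven growth, was low throughout. Counts were 67, 29, 33 and 37 in WT and 50, 14, 23 and 22 in the line, or 0.838 ± 0.199 and 0.721 ± 0.381 CPM (SD, n = 4). Replicate 1 was the highest library in both groups, and the groups overlapped. The log2 fold change was -0.21 ± 0.38 (SE; edgeR adjusted p = 0.682), and no alternative setting called it (adjusted p = 0.124 to 0.929). The value depends on replicate 1: it was -0.66 ± 0.32 (SE) without that library of the line and -0.05 ± 0.41 (SE) without that of WT. Without WT replicate 2 it was -0.34, and without replicate 2, 3 or 4 of the line -0.06 to -0.11.

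Ratios between WRKY genes within a library do not depend on that library's scaling, apart from a pseudocount of 0.5 CPM. The question was whether linked genes shifted against each other, in 7 pairs. WRKY45 was lower against WRKY13 in every library of the line: the mean log2 ratio was -0.30 ± 0.67 in WT and -3.25 ± 0.50 in the line (SD, n = 4). WRKY53 was lower against WRKY70, with mean log2 ratios of 5.82 ± 0.20 in WT and 5.13 ± 0.30 in the line (SD, n = 4). WRKY13 against near-silent WRKY42 had 6.97 ± 0.19 and 6.001 ± 0.25, a ratio set largely by the pseudocount. With 0.5 CPM none of these ratios overlapped between the groups. For each a two-sided exact permutation test gave p = 0.0286, the lowest p open to 4 libraries against 4. Adjusted over the 7 pairs, the exact permutation p of all 3 was 0.0667, so no pair passed. A pair at the lowest p could pass only if most of the 7 pairs also reached it. That no pair passed therefore does not show that the ratios were unchanged. WRKY70 is low in all libraries, so its pair also depends on the pseudocount. With 0.1 CPM WRKY53 against WRKY70 differed by -0.60, and its adjusted exact permutation p was 0.1.

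WRKY62 against its neighbour WRKY76 differed by 0.22 between the groups, which was within the spread (exact permutation p = 0.8286). WRKY45 against WRKY62 differed by -0.13 (exact permutation p = 0.771). Both depend on the pseudocount, as WRKY62 is near the floor in the line: with 0.1 CPM they were -0.76 and 1.01. WRKY71 against WRKY28 differed by 0.40 (exact permutation p = 0.0857, adjusted p = 0.15) and WRKY53 against WRKY24 by -0.39 (exact permutation p = 0.229, adjusted p = 0.32). The former also depends on the pseudocount, since WRKY28 is low in all libraries: it was 0.96 with 0.1 CPM and 0.20 with 1 CPM. Its adjusted exact permutation p was 0.0667 with 0.1 CPM and 0.2 with 1 CPM. Paired by replicate number, 5 of the 7 ratios, these included, differed in the same direction in all 4 pairs. Each of the 5 had the smallest p that a paired exact permutation test over 4 pairs can give, 0.125, and an adjusted p of 0.175.

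Apart from the genotype, WRKY62 and WRKY76 moved together from library to library. After each group's mean was subtracted from log2 CPM, their correlation over the 8 libraries was 0.927, the highest of 36 pairs of tested members, whose median was 0.473. In both groups replicate 2 was the lowest library and replicate 3 the highest for WRKY62 and for WRKY76. In replicate 2 they lay at -2.20 and -2.06 from the WT mean on the log2 scale, and at -0.80 and -1.85 from the mean of the line. Without WT replicate 2 their correlation was 0.992, whereas that of WRKY45 with WRKY62 went from 0.783 to 0.166 and that of WRKY45 with WRKY76 from 0.636 to 0.141. The last pairs therefore rest on that library.

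WRKY24 correlated at 0.811 with WRKY53 and at 0.809 with WRKY70, the genes of its own subgroup, while WRKY53 and WRKY70 correlated at 0.622. These genes were not set apart from group IIa by this measure, since WRKY71 correlated at 0.731 with WRKY70 and WRKY28 at 0.722 with WRKY53. WRKY24 and WRKY70 were 0.90 and 0.91 above the group mean in replicate 1 of the line. All pairs share the same 8 libraries and their scaling factors, and these correlations are descriptions. For WRKY45, the member of lowest p, WRKY62 ranked 1139 in likeness by this measure. The 2 loci most like it, at correlations of 0.996 and 0.985 among 20689 compared, were not called, at log2 fold changes of 0.13 and 1.41 (edgeR adjusted p = 0.749 and 0.0547).

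**Figure D3:**
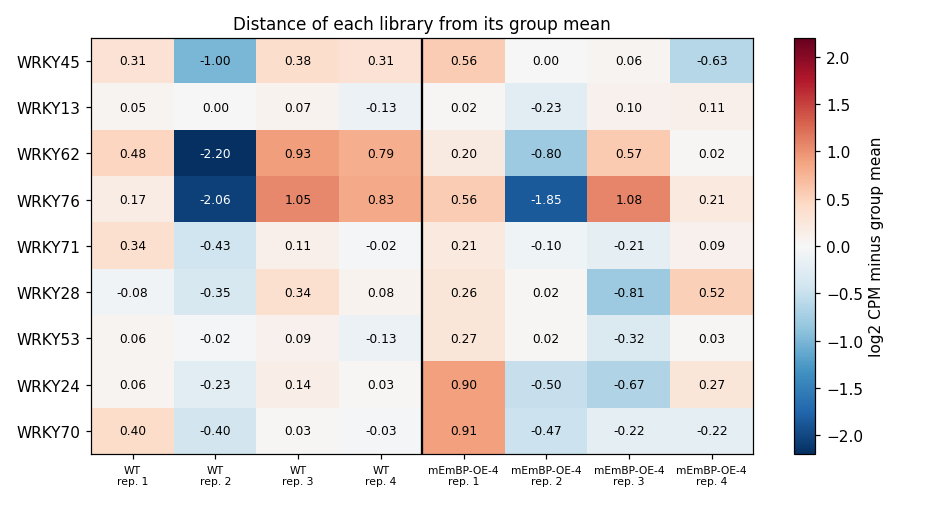
Log2 CPM of each tested WRKY gene in each library minus the mean of that library's group, with WT on the left of the line and mEmBP-OE-4 on the right. Blue is below and red above the group mean. WRKY62 and WRKY76 are lowest in replicate 2 of both groups, and WRKY24 and WRKY70 are highest in replicate 1 of mEmBP-OE-4.

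WT replicate 2 was the lowest WT library for 7 of the 9 tested members, against 31.1% of all tested genes and 12 of 30 further WRKY loci. With WT replicate 2 left out the 6 members still fell, each by at least as much as with it. Without both replicate 2 libraries, a setting added after the data were seen, 5 fell, and WRKY28 was not called (adjusted p = 0.0657).

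Further genes of the WRKY family and of rice immunity were taken from lists of loci recalled from memory, to which the files give no names. Of 46 further WRKY loci 30 were tested. Of these 8 fell, 3 rose and 19 did not pass, with a median log2 fold change of -0.06 against 0.00 for all tested genes. The median was -0.30 without replicate 1 of the line and 0.0003 without WT replicate 4. That is 26.7% lower and 10.0% higher, where all tested genes had 19.1% and 20.1%. With library totals alone 13 fell and 1 rose, where 43.1% of all tested genes were lower and 8.47% higher. In the blocked fit 10 fell and 4 rose, where 24.1% of all tested genes were lower and 25.2% higher.

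By lowest p, Os07g0111400 and Os12g0116700 led the further WRKY loci that fell. Os07g0111400 stood at 8.51 ± 1.21 CPM in WT and 2.27 ± 0.466 CPM in the line (SD, n = 4), with a log2 fold change of -1.91 ± 0.19 (SE; edgeR adjusted p = 1.36e-04). Os12g0116700 went from 14.0 ± 7.55 to 1.12 ± 0.299 CPM, a log2 fold change of -3.64 ± 0.38 (SE; edgeR adjusted p = 1.46e-04). The ends of rice chromosomes 11 and 12 carry a recent duplication, so reads of this locus could be shared with a close copy. Os05g0583000 rose from 0.750 ± 0.369 to 3.24 ± 0.611 CPM (edgeR adjusted p = 0.00196). Os03g0798500 rose from 0.543 ± 0.0746 to 1.14 ± 0.253 CPM, with adjusted p = 0.0123, but was not called with library totals alone (adjusted p = 0.134).

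The immune signalling list, meant for chitin receptors, the kinases below them and the coactivators of salicylic acid responses, had all 15 loci tested, of which 5 fell and 2 rose, or 33.3% and 13.3% against 19.1% and 20.1% of all tested genes. Its median log2 fold change was 0.06, near that of all tested genes. In the blocked fit 4 rose, or 26.7% against 25.2% of all tested genes. No locus was called higher when WT replicate 2, WT replicate 4 or replicate 2 of the line was left out, or with library totals alone, and 1 was called when WT replicate 1, WT replicate 3 or replicate 4 of the line was left out.

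Diterpenoid phytoalexins are antifungal compounds of rice whose synthesis is tied to WRKY45 and WRKY76. Of 13 loci on that list only 6 were expressed enough to test. Of these 1 fell and none rose, or 16.7% and 0% against 19.1% and 20.1% of all tested genes. The median log2 fold change was -0.58. That median rests on WT replicate 1, the highest WT library at 6 of 6 loci, without which it was 0.0017. No locus rose by edgeR, also at an unadjusted p of 0.05, or by DESeq2 or limma-voom. The list's summed level was 16.2 to 35.6 CPM in WT and 13.1 to 31.1 CPM in the line. These ranges overlapped.

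Pathogenesis-related proteins, the secreted and cytosolic proteins that serve as markers of an active defence, had 9 loci tested, of which 3 fell and 1 rose, or 33.3% and 11.1% against the same 19.1% and 20.1%, with a median of -1.13. In the blocked fit 5 fell and 2 rose, or 55.6% and 22.2% against 24.1% and 25.2%. When WT replicate 2, WT replicate 3 or replicate 2 or 4 of the line was left out 1 fell, and when replicate 1 of the line was left out 5 fell. The locus that rose was not called when WT replicate 3, WT replicate 4 or replicate 1 or 3 of the line was left out, nor with library totals alone. Their summed level was 96.4 to 191 CPM in WT and 59.4 to 208 CPM in the line. Most of it was 1 locus that was not called, at a mean of 74.8 CPM in WT and 75.4 CPM in the line, so the sum says little of the others. Replicate 1 was the highest library at 9 of 9 loci in WT and 8 of 9 in the line, against 38.1% and 29.7% of all tested genes. Of the 9 tested WRKY members, replicate 1 was the highest library for 2 in WT and for 5 in the line.

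**Figure D4:**
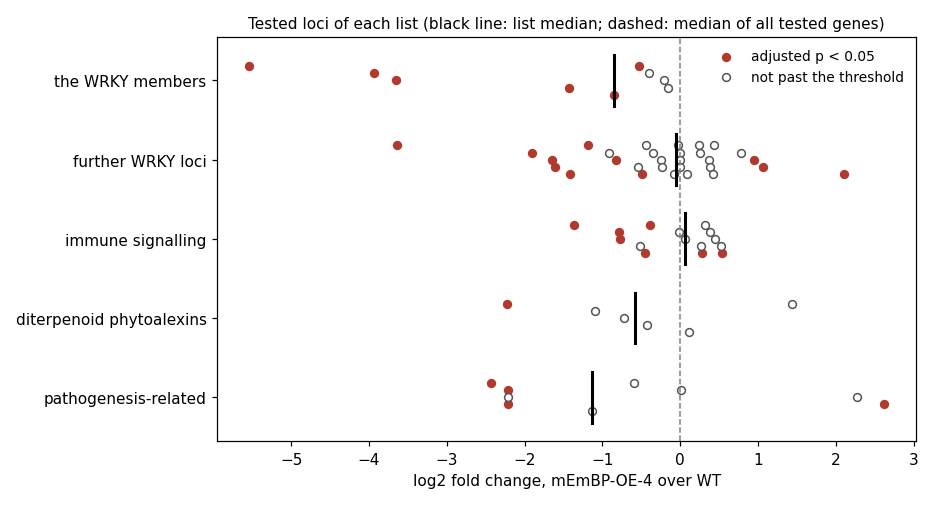
Log2 fold change, mEmBP-OE-4 over WT, of the tested loci of each list under TMM scaling, with called loci filled, list medians as black lines and the median of all tested genes dashed. The WRKY members reach -5.54, and the further WRKY loci spread to both sides around a median of -0.06.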

How the data were processed

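Leaf libraries of WT and mEmBP-OE-4 (n = 4 each) were compared. The authors deposited raw counts: whole numbers of reads for each gene and library. Per the submitters' processing notes, FastQC, Trim Galore, STAR 2.5.3a, DESeq2 and build IRGSP-1.0 were used; the program that counted reads, its strand setting and the gene models are not given in the sources here, so overlapping genes and close copies carry an unknown error. Low genes were removed by filterByExpr at a minimum count of 10 and total of 15, which kept 20690 of 36850 rows. The rest were scaled by TMM over totals of all rows, and compared with edgeR 4.0.16 in R 4.3.3 (quasi-likelihood F test, no covariates, Benjamini-Hochberg over all tested genes, threshold 0.05). SE is the absolute log2 fold change over the square root of F. Ratios were tested by exact permutation (70 ways to choose 4 of 8 libraries).

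Members and lists were chosen with earlier results of these data known, and list loci were recalled from memory. Named were all members and, since the files pair no IDs with names, the 2 higher and 2 lower list loci of lowest p. The gene table of ASM3414082v1 named 4 members, each on the chromosome of its ID. Sequences were not used here.

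Replicates within a group were not duplicates: their chi-square was 6.20 to 110 per degree of freedom. Deviations of same-numbered libraries correlated at 0.641, 0.347, 0.189 and 0.104, all above 0.1, so pairing by number was run as an alternative. The main fit and its calls treated the libraries as unpaired. This pairing is not settled: 1 of the 24 possible matchings had a higher mean correlation, 0.347 against 0.320. WT replicate 2 correlated better with replicate 4 of the line, at 0.472. A blocked fit stands beside results whose call or count of calls it moves. The labels do not say what a number shares. On simulated counts for 20690 genes 1.69% of 59 genes with a 1.5-fold change, 35.6% of 73 genes with a 2-fold change and 82.4% of 68 with a 4-fold change were called, as were 4 of 20202 unchanged genes. Only these genes were changed, whereas 8108 were called in the data. The adjustment is stricter when fewer genes change, so these shares do not carry over to the data. Alternatives were other scalings, filters and tests (DESeq2 1.42.0, voom in limma 3.58.1), the block and leaving out libraries.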

Additional observations from a re-analysis of the deposited data

Results flagged for a closer look

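Among 20 groups of 4 member values, 2 held a library far from the other 3 by Dixon's criterion, where chance gives about 1 in 20 groups. WRKY45 was at 29.0 CPM in WT replicate 2, against 72.0 to 75.5 CPM in the other WT libraries. WRKY70 was at 1.29 CPM in mEmBP-OE-4 replicate 1, against 0.466 to 0.566 CPM in the other libraries of the line.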

How the results depend on the processing

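Of 150 log2 fold changes of members under alternatives, 144 stayed on their side of the threshold, 4 lost a call (all of WRKY28), 2 gained one (WRKY71, WRKY24) and none changed sign. Members that fell numbered 4 to 7, the 4 with at least 5 CPM in 4 libraries, which removes WRKY62, WRKY28 and WRKY70; leaving out 1 library gave 5 to 7. The replicate block changed no member's call. All genes called numbered 8108 and 10200 with the block, but 5220 with at least 5 CPM in 4 libraries, 5005 without both replicate 2 libraries, and 6399 to 8450 with 1 library left out. The difference in the WRKY62 to WRKY76 ratio turned to -0.76 with a pseudocount of 0.1 CPM and ranged from -0.17 to 0.45 with 1 library left out. That of WRKY45 to WRKY62 turned to 1.01 and ranged from -0.29 to 0.18. It was 0.18 without WT replicate 2 and 0.06 without mEmBP-OE-4 replicate 4. A paired exact test over 4 pairs cannot go below p = 0.125. No ratio pair passed under any pseudocount, but with 4 libraries against 4 no pair could pass alone once adjusted over 7 pairs. WRKY62, WRKY28, WRKY42 and WRKY70 are limited by low counts in some or all libraries. Causes were not tested.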
